A study of Homo sapiens with 6 samples.

Results

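Polyamine synthesis and its control by antizyme were described through 7 genes, ODC1, OAZ1, OAZ2, AZIN1, AMD1, SRM and SMS, in IR-PAR-CLIP libraries of IGF2BP3, an mRNA-binding protein. A cluster, a stretch of overlapping reads that carries T-to-C conversions, was counted for a gene when 1 nt or more of it lay on an exon of that gene in the same orientation. By this rule 281 of the 244645 clusters in the 6 libraries belonged to 6 of the 7 genes, and SMS had none. HCT116, the source of all libraries, is a line of human colorectal carcinoma cells and here conditionally expressed Tet-OsTIR1. The cells were labeled with 100 µM 4-thiouridine for 15 h and irradiated at 365 nm. In the lysate, and again on the beads after precipitation of IGF2BP3, the RNA was cut with RNase I (0.05/0.05, 0.1/0.025 or 0.05/0.025 U/µL) or RNase T1 (1/1 or 0.25/0.25 U/µL), where the first value is the concentration in the lysate and the second that on the beads. The control used IgG after RNase I at 0.1/0.025 U/µL. There was 1 library per condition, so no difference has a replicate check, and the 95% intervals given cover counting error only. The antibody to IGF2BP3 was reported to recognize IGF2BP2 in part. The RNase I 0.05/0.05 and RNase T1 1/1 libraries were electroeluted from the gel and the other IGF2BP3 libraries came from crushed gel, so that gel extraction and RNase concentration cannot be told apart within an enzyme for the pairs that differ in both.

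Polyamines are small cations that bind nucleic acids and are needed for growth, and their synthesis is raised in colorectal tumors. ODC1 makes putrescine from ornithine, AMD1 makes the decarboxylated S-adenosylmethionine that donates the aminopropyl groups, and SRM and SMS add these groups to make spermidine and spermine. High polyamine levels make the ribosome slip into the next reading frame within the antizyme mRNAs OAZ1 and OAZ2. The full-length antizymes then bind ODC1 and deliver it to the proteasome, and AZIN1, a homolog of ODC1 without its activity, frees ODC1 by binding antizyme in its place.

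The frameshift sites of both antizyme mRNAs are shown because clusters lay over only 1 of them. They were read from the GRCh38 genome at the single base that GENCODE release 44 skips within the coding sequence, and the capitals mark the UGA stop codon of the first frame, whose U is the skipped base. The 2 windows shared 31 of 33 bases.
OAZ1 frameshift, chr19:2271428-2271460, plus strand: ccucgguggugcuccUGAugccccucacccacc
OAZ2 frameshift, chr15:64691498-64691530, minus strand: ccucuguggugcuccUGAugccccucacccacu
The OAZ1 cluster over this site in the RNase I 0.05/0.05 library is shown whole, with the same UGA in capitals.
OAZ1 cluster, RNase I 0.05/0.05, chr19:2271384-2271532, plus strand: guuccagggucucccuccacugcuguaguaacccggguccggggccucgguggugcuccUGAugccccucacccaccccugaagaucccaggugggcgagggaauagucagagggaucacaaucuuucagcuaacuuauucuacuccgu
The cluster with the most reads in the 2 electroeluted libraries is shown for each gene with clusters except AZIN1 as the 30 nt around its mode. Capitals mark the tetramers CAUU and CAUA where they occur. CAGU was also searched.
ODC1, RNase I 0.05/0.05, chr2:10440590-10440619, minus strand: agggucgccaugaugcagcCAUAuggaaga
OAZ1, RNase I 0.05/0.05, chr19:2273073-2273102, plus strand: uucgagagagagucuucgggagaggaggag
OAZ2, RNase I 0.05/0.05, chr15:64688011-64688040, minus strand: acucccaccaccagggcuuuuuugggggau
AMD1, RNase I 0.05/0.05, chr6:110893982-110894011, plus strand: aggcuuucguccuCAUUagguguuggccuc
SRM, RNase I 0.05/0.05, chr1:11054724-11054753, minus strand: aaguguuacaagccccagaaugcugcccgg
ODC1, RNase T1 1/1, chr2:10440555-10440584, minus strand: auaugggucacacuuaucuguguuccuaug
OAZ1, RNase T1 1/1, chr19:2273296-2273325, plus strand: cuuuaauucuaaauaaaaauuuauauuuua
OAZ2, RNase T1 1/1, chr15:64687665-64687694, minus strand: cuaaacagcuuuuucuaaggggagagcaag
AMD1, RNase T1 1/1, chr6:110894659-110894688, plus strand: gucagcuuggauCAUUcaccuuaacuuuuc
SRM, RNase T1 1/1, chr1:11054604-11054633, minus strand: ccuucuguugccccucacucaccaaacacg
The ODC1 cluster in the 5′UTR is shown because all 5 IGF2BP3 libraries held a cluster there.
ODC1 5′UTR, RNase T1 1/1, chr2:10445163-10445191, minus strand: gaaauauuucuuucaauuccaucucuuag

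Reads are given as CPM, cluster reads of the gene divided by all cluster reads of the library and multiplied by 1000000, and levels of different genes are compared only as CPM per kb of the canonical transcript. The mRNA levels were not measured here, so that the amount of an mRNA and its binding cannot be told apart. Cluster reads ranged from 182448 to 2362467 over the IGF2BP3 libraries, and the polyamine genes held 0.0960% to 0.124% of them. In the RNase I 0.05/0.05 library OAZ1 was highest with 159 CPM per kb (95% Poisson interval 144 to 174). AMD1 followed with 141 CPM per kb (133 to 149), within counting error of OAZ1. SRM had 88.7 CPM per kb (78.3 to 100), AZIN1 56.6 (52.0 to 61.5), ODC1 46.2 (40.8 to 52.0) and OAZ2 22.8 (18.6 to 27.6), where the intervals of AZIN1 and ODC1 met and the others were apart. The order was different with RNase T1 1/1. There AMD1 led with 135 CPM per kb (124 to 147), and AZIN1 at 72.7 (65.3 to 80.7) and OAZ1 at 59.5 (47.1 to 74.1) overlapped. ODC1 lay below them with an interval of 24.0 to 37.1, SRM had 15.8 (10.00 to 23.7) and OAZ2 15.6 (10.9 to 21.7), the last 2 within counting error of each other.

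**Figure D1:**
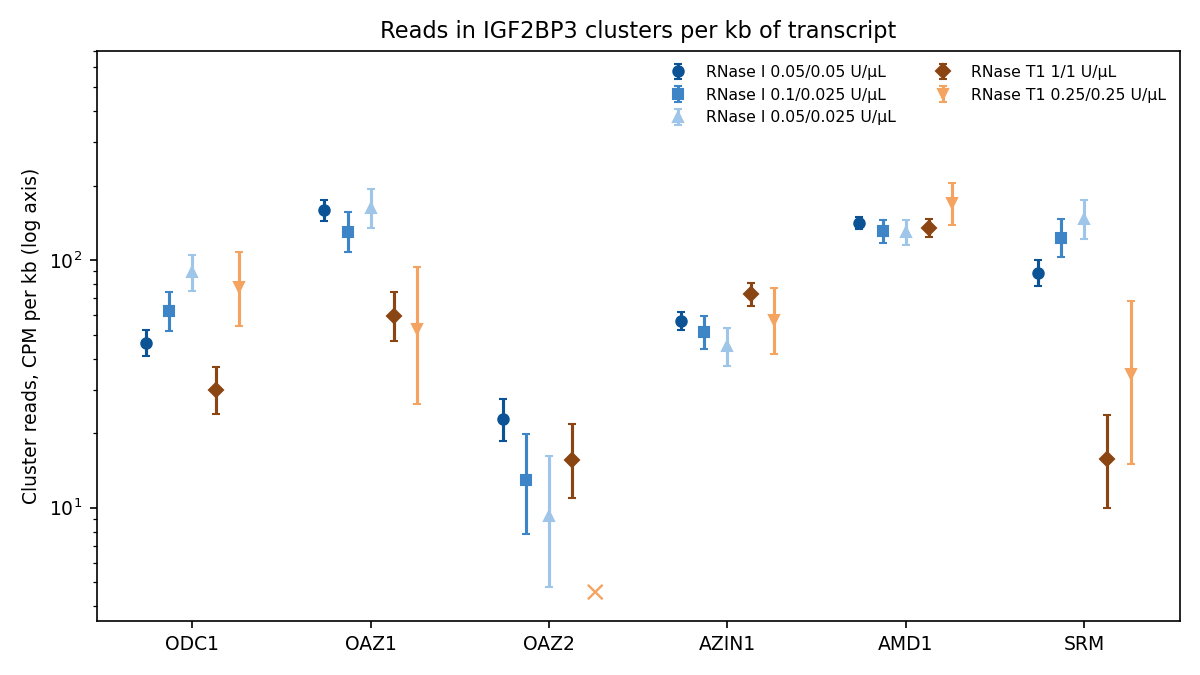
Reads in clusters as CPM per kb of the canonical transcript (log axis) for 6 genes in the 5 IGF2BP3 libraries, with 95% Poisson intervals for counting error. The cross marks the library without an OAZ2 cluster. AMD1 lay between 130 and 170 CPM per kb in all 5 libraries, whereas OAZ1 and SRM were lower in both RNase T1 libraries than in the 3 RNase I libraries.

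AMD1, the S-adenosylmethionine decarboxylase, had the most even level across conditions. It had 483 CPM with RNase I at 0.05/0.05, 447 at 0.1/0.025 and 444 at 0.05/0.025, and 462 with RNase T1 at 1/1 and 581 at 0.25/0.25. The gene lies on the plus strand of chromosome 6 (GRCh38, 110874770 to 110898879), and its canonical 3′UTR has 2100 nt, stop codon included. Clusters of the 5 libraries merged into 33 sites, of which 5 were found in every IGF2BP3 library.

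The AMD1 sites found in every library all lay in the 3′UTR. The site with the most RNase I reads spanned 157 to 558 nt from the first base of the stop codon. It took 37.3% of the AMD1 reads with RNase I at 0.05/0.05 (Wilson interval 34.5 to 40.1), 39.6% at 0.1/0.025 and 46.6% at 0.05/0.025. With RNase T1 it took 20.9% at 1/1 (17.7 to 24.6) and 26.4% at 0.25/0.25 (19.0 to 35.5). The 0.25/0.25 interval overlapped those of RNase I 0.05/0.05 and 0.1/0.025 (34.6 to 44.7). The site at 984 to 1169 nt showed the opposite order. It held 13.3% of the reads with RNase I at 0.05/0.05 (11.5 to 15.4), 20.6% at 0.1/0.025 and 11.4% at 0.05/0.025, but 29.9% with RNase T1 1/1 (26.2 to 33.9) and 37.7% with RNase T1 0.25/0.25. The interval of each RNase T1 library was above those of the RNase I libraries at the second site. With RNase I 0.05/0.05 the first site had 425 reads in 2 clusters, and the longer of these, of 298 nt, had 406 reads and conversions at 81 of its 101 uridines. A site at the end of the canonical transcript, 1945 to 2099 nt from the stop codon, held 7.98% to 16.4% of the reads.

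**Figure D2:**
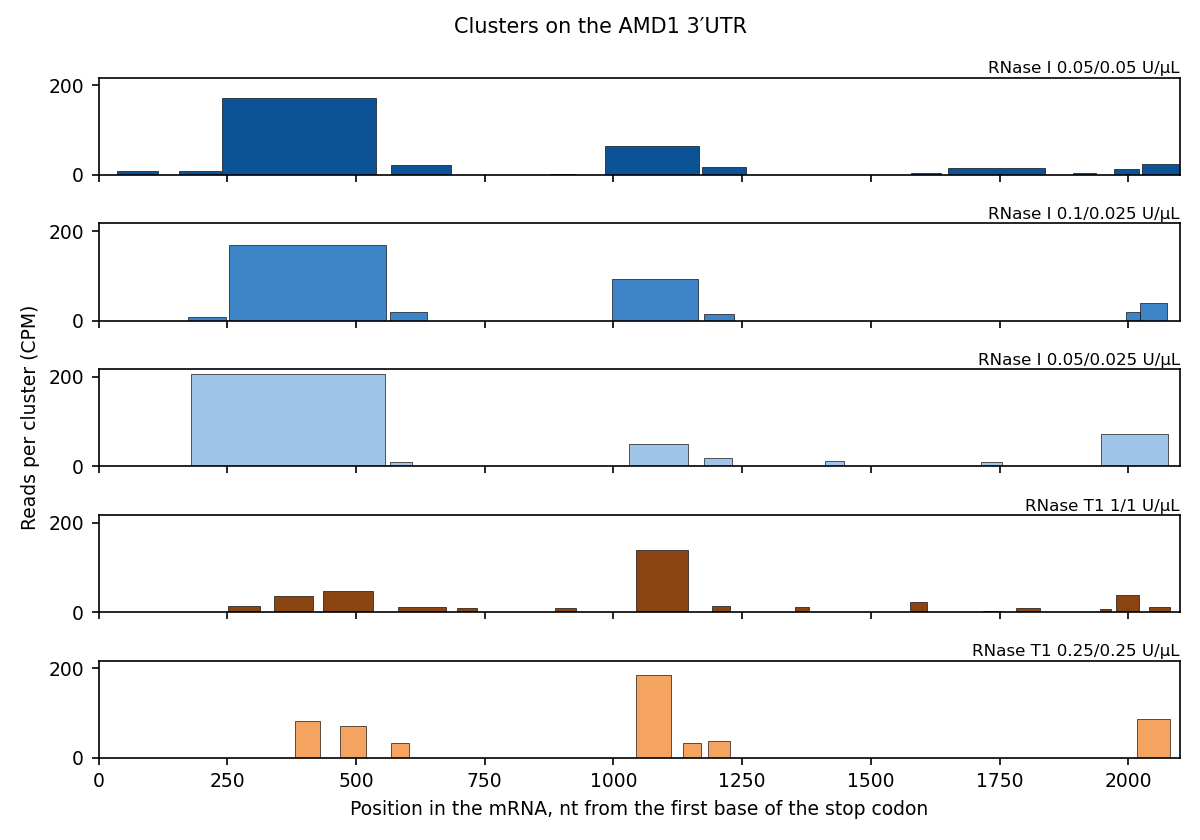
Clusters on the canonical 3′UTR of AMD1 in the 5 IGF2BP3 libraries. The x axis gives the position in nt from the first base of the stop codon, each bar is a cluster drawn to its length, and its height is its reads in CPM. The bar between 157 and 558 nt is the tallest in each RNase I library and the bar between 984 and 1169 nt in each RNase T1 library.

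AMD1 clusters also lay past the canonical 3′ end, in 3′UTR sequence of longer transcripts. They held 9.65% of the AMD1 reads with RNase I 0.05/0.05 (8.07 to 11.5), 4.74% at 0.1/0.025, 8.05% at 0.05/0.025 and 17.2% with RNase T1 1/1 (14.2 to 20.6), in clusters up to 2678 nt past that end. RNase T1 0.25/0.25 had no cluster there. Part of the 5′ site is coding in another AMD1 transcript, whose last coding base, 110893997, lies 383 nt past the first base of the canonical stop codon. Of the 92 AMD1 clusters 13 were coding. Of these, 7 with 122 of 196 reads held or lay within the sequence of a cluster on an AMD1 pseudogene, so that their origin is uncertain.

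OAZ1, the main antizyme, had most of its reads in coding clusters with RNase I. The gene lies on the plus strand of chromosome 19 (2269509 to 2273490). It had 182 CPM with RNase I at 0.05/0.05, 149 at 0.1/0.025 and 186 at 0.05/0.025, and 68.3 with RNase T1 at 1/1 and 60.3 at 0.25/0.25, so that both RNase T1 libraries were below all RNase I libraries. Coding clusters held 68.8% of the OAZ1 reads with RNase I 0.05/0.05 (64.3 to 73.0), 75.8% at 0.1/0.025 (67.4 to 82.6), 62.4% at 0.05/0.025 (53.7 to 70.4) and 46.8% with RNase T1 1/1 (36.2 to 57.7), where 3′UTR clusters held the other 53.2%. In RNase T1 0.25/0.25 the only OAZ1 cluster, of 11 reads, was coding. Among protein-coding genes with at least 20 reads, 13.2%, 11.6% and 12.2% had over 50% of their reads in coding clusters in the same 3 RNase I libraries.

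The frameshift site of OAZ1 lay under 1 cluster in each RNase I library. That cluster had 59 reads at 0.05/0.05, 25 at 0.1/0.025 and 15 at 0.05/0.025, and 0.746, 0.720 and 0.733 conversion events per read. These events are counted over the whole cluster and do not place a conversion at the frameshift site. With RNase T1 the nearest cluster began 25 nt downstream of the skipped base at 1/1 and 48 nt downstream at 0.25/0.25, on the same exon. Both RNase T1 clusters lay within the RNase I 0.05/0.05 cluster, and the merged site was found in all 5 IGF2BP3 libraries. No OAZ2 cluster came nearer than 2761 nt of genomic distance to the OAZ2 frameshift site, although the windows differ at few bases. OAZ2 had 104 reads in its richest library and OAZ1 430. The next coding sites of OAZ1 covered -388 to -229 nt and -134 to -4 nt from the stop codon. They held 22.8% and 26.0% of its reads with RNase I at 0.05/0.05, 29.2% and 20.8% at 0.1/0.025, 21.6% and 12.8% at 0.05/0.025, and 8.86% and 11.4% with RNase T1 1/1. At the first of these sites the interval with RNase I 0.05/0.025 (15.3 to 29.6) overlapped that with RNase T1 1/1 (4.36 to 17.2). At the second, the RNase T1 1/1 interval was 6.11 to 20.3. It overlapped those with RNase I 0.1/0.025 (14.5 to 28.9) and 0.05/0.025 (8.03 to 19.8). The remaining RNase I intervals at these sites were above those with RNase T1 1/1.

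**Figure D3:**
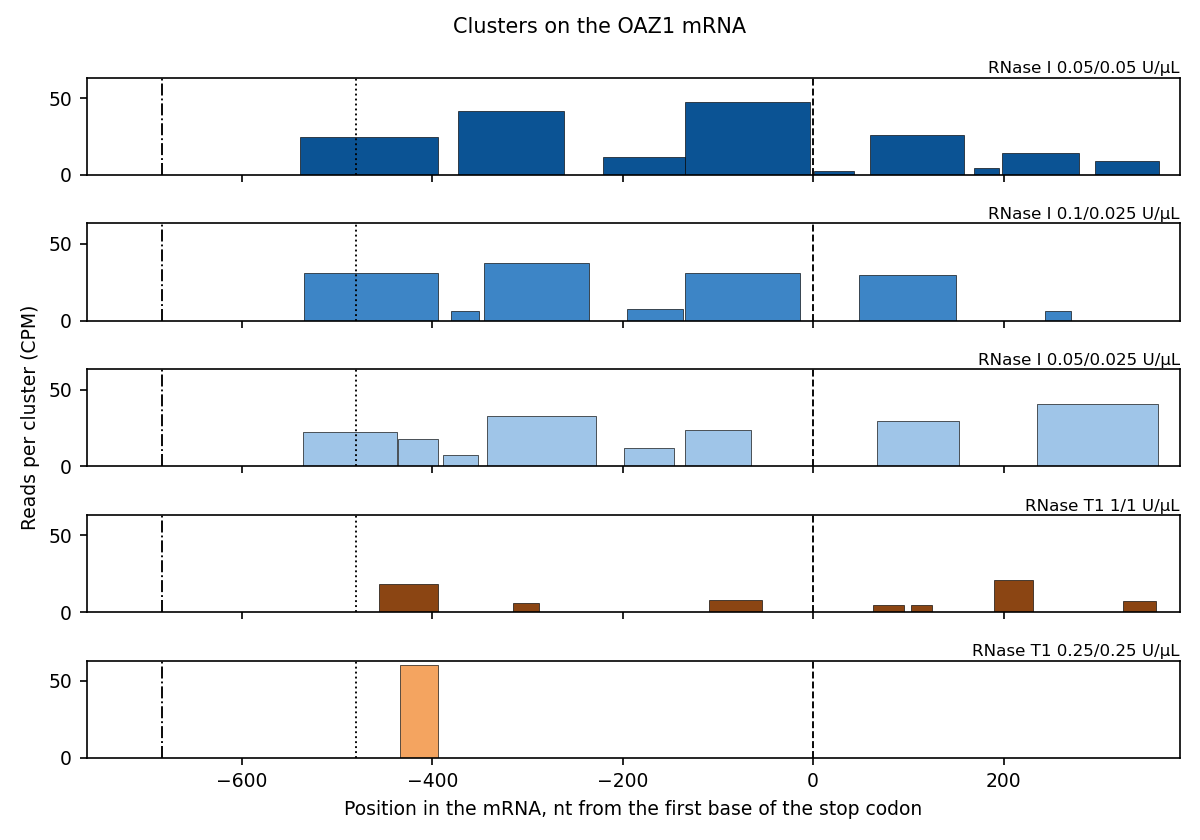
Clusters on the OAZ1 mRNA in the 5 IGF2BP3 libraries, with position in nt from the first base of the stop codon on the x axis and reads per cluster in CPM as bar height. The dash-dotted line is the start of the coding sequence, the dotted line the frameshift site at -480 nt and the dashed line the stop codon. The cluster over the frameshift site is seen with RNase I only.

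OAZ2, the second antizyme, rested on the fewest reads over the libraries among the genes with clusters. It had 44.0 CPM with RNase I at 0.05/0.05, 24.9 at 0.1/0.025 and 17.9 at 0.05/0.025, 30.2 with RNase T1 at 1/1 and no cluster with RNase T1 0.25/0.25. The gene lies on the minus strand of chromosome 15 (64687573 to 64703281). All 13 of its clusters overlapped the 3′UTR, with 100% of its reads in the 4 libraries that had any. Its 7 sites included 5 that were found in a single library, and none was found in all 5. The site at 555 to 695 nt from the stop codon had 45 reads with RNase I at 0.05/0.05, 12 at 0.1/0.025 and 16 with RNase T1 1/1.

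ODC1, the decarboxylase that the antizymes target, lies on the minus strand of chromosome 2 (10439968 to 10448327). It had 114 CPM with RNase I at 0.05/0.05, 154 at 0.1/0.025 and 221 at 0.05/0.025, and 74.3 with RNase T1 at 1/1 and 192 at 0.25/0.25. The electroeluted library of each enzyme was the lowest of that enzyme. A site at 102 to 263 nt from the stop codon was present in all 5 libraries and took 37.0% of the ODC1 reads with RNase I at 0.05/0.05 (31.5 to 42.9), 43.5% at 0.1/0.025 and 41.9% at 0.05/0.025, and 50.0% with RNase T1 at 1/1 (39.7 to 60.3) and 80.0% at 0.25/0.25, the last from 28 of 35 reads. Coding clusters held 42.2%, 45.2% and 47.3% of the reads in the RNase I libraries in the order above. They held 12.8% with RNase T1 1/1, and RNase T1 0.25/0.25 had no coding cluster.

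The other ODC1 site present in all 5 libraries lay in the 5′UTR, the leader through which ODC1 translation is regulated. Its clusters had 8, 9 and 13 reads with RNase I 0.05/0.05, 0.1/0.025 and 0.05/0.025. They had 25 reads with RNase T1 1/1 and 7 with RNase T1 0.25/0.25. This was 2.96% of the ODC1 reads (1.51 to 5.74), 7.26% (3.87 to 13.2) and 8.78% (5.21 to 14.4) with RNase I, and 29.1% (20.5 to 39.4) and 20.0% (10.0 to 35.9) with RNase T1. The interval of RNase T1 1/1 was above all 3 RNase I intervals, and that of RNase T1 0.25/0.25 overlapped those of RNase I 0.1/0.025 and 0.05/0.025. In the RNase T1 1/1 cluster 7 of 13 uridines were converted, with 0.400 events per read. Of protein-coding genes with at least 20 reads, 1.21% had at least 5% of their reads in 5′UTR clusters in that library and 1.55% in the RNase I 0.05/0.05 library. With RNase I 0.05/0.05 ODC1 was under 5%. There AZIN1 had 6.24% of its reads in 5′UTR clusters (4.52 to 8.55) and AMD1 4.04% (3.04 to 5.34). Neither AZIN1 nor AMD1 had a 5′UTR cluster with RNase T1 1/1.

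AZIN1, the antizyme inhibitor, lies on the minus strand of chromosome 8 (102826111 to 102893864). It had 237 CPM with RNase I at 0.05/0.05, 214 at 0.1/0.025 and 188 at 0.05/0.025, and 305 with RNase T1 at 1/1 and 241 at 0.25/0.25. The RNase T1 1/1 value was above the intervals of the RNase I libraries, and that of RNase T1 0.25/0.25 (175 to 324) was within counting error of them. Its clusters merged into 29 sites, of which 15 were found in 1 library. A site from 4 to 459 nt after the start of the stop codon was found in all 5 libraries. It held 28.0% of the AZIN1 reads with RNase I at 0.05/0.05 (24.4 to 31.8), 33.1% at 0.1/0.025 (26.5 to 40.5) and 42.1% at 0.05/0.025 (33.8 to 50.8). With RNase T1 it held 37.7% at 1/1 (32.8 to 42.8) and 52.3% at 0.25/0.25 (37.9 to 66.2). The RNase I 0.05/0.05 interval was below both RNase T1 intervals, whereas those of RNase I 0.1/0.025 and 0.05/0.025 overlapped both. The other site found in all libraries, at 1262 to 1486 nt, held 11.2%, 16.3% and 7.14% in the RNase I libraries in the same order. It held 19.0% (15.2 to 23.4) and 47.7% (33.8 to 62.1) in the RNase T1 libraries. The RNase T1 1/1 interval overlapped that of RNase I 0.1/0.025 (11.5 to 22.5). The 47.7% rests on 21 reads with 3 conversion events. In 1 library a cluster of 5 reads was shared with a second annotated protein-coding gene, ENSG00000289653.

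SRM, the spermidine synthase, had the largest ratio between the electroeluted libraries among these genes. The gene lies on the minus strand of chromosome 1 (11054584 to 11060020). It had 112 CPM with RNase I at 0.05/0.05, 156 at 0.1/0.025 and 185 at 0.05/0.025, but 19.9 with RNase T1 at 1/1 and 43.8 at 0.25/0.25. The RNase T1 values rest on 23 and 8 reads. A site at 77 to 270 nt from the stop codon, in a 3′UTR of 279 nt, was present in all 5 libraries and held 69.7% of the reads with RNase I at 0.05/0.05 (63.9 to 74.9), 83.2% at 0.1/0.025 and 61.3% at 0.05/0.025, 73.9% with RNase T1 1/1 (53.5 to 87.5) and all 8 reads with RNase T1 0.25/0.25. Coding clusters held 23.9%, 12.8% and 38.7% of the SRM reads in the RNase I libraries, and neither RNase T1 library had one.

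SMS, the spermine synthase on chromosome X (21940709 to 21994837), had no cluster in any library. Other genes on chromosome X had clusters, with 417 to 3364 clusters per IGF2BP3 library on that chromosome, and the SMS pseudogene SMSP1 had none. The files list clusters of at least 2 reads, so that reads of SMS outside clusters are not counted.

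In the IgG library 25 clusters with 324 reads were called, and 0 belonged to these genes. At the share the genes held in the IGF2BP3 library of the same RNase treatment, 0.115%, that many reads would hold 0.371, so the IgG library is too small to set a level for them.

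Target genes of a library were those with 1 or more clusters that exceeded both 10 CPM and 0.5 conversion events per read. The counts here are of genes with a cluster, which leaves out SMS and, with RNase T1 0.25/0.25, also OAZ2. With RNase I 0.05/0.05, 6 of 6 genes were targets, beside 45.0% of the 11080 genes with a cluster. With RNase I 0.1/0.025 there were 5 of 6, all but OAZ2, beside 63.3%, and with RNase I 0.05/0.025 there were 6 of 6, beside 70.1%. With RNase T1 1/1 there were 3 of 6, OAZ1, AZIN1 and AMD1, beside 49.3%. With RNase T1 0.25/0.25 there were 3 of 5, ODC1, AZIN1 and AMD1, beside 80.3%. The count with RNase T1 1/1 was 6 at a criterion of 5 CPM and 1 at 20 CPM. AZIN1 and AMD1 were targets in all 5 libraries, as were 2094 (17.5%) of the 11988 genes with a cluster in any. With RNase T1 the AZIN1 calls rested on 1 cluster each, of 15 reads at 1/1 and 8 at 0.25/0.25. AMD1 had 9 and 6 clusters past both criteria there. The criterion of 10 CPM corresponded to 23.6 reads in the largest library and 1.82 in the smallest.

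Conversion events per read separated the genes little with RNase I 0.05/0.05, between 0.596 for AMD1 and 0.674 for SRM, beside a median of 0.640 over genes with at least 20 reads. AZIN1 had its lowest values with RNase T1, in part within counting error of RNase I. It had 0.635 events per read with RNase I 0.05/0.05 (0.570 to 0.704), 0.616 at 0.1/0.025 (0.505 to 0.745) and 0.476 at 0.05/0.025 (0.363 to 0.613). With RNase T1 it had 0.357 at 1/1 (0.297 to 0.425) and 0.341 at 0.25/0.25 (0.191 to 0.562). The RNase I 0.05/0.025 interval overlapped both RNase T1 intervals, and that of RNase I 0.1/0.025 overlapped that of RNase T1 0.25/0.25. The median over all such genes was also lower with RNase T1. It was 0.523 at 1/1, above the AZIN1 interval, and 0.556 at 0.25/0.25, within the AZIN1 interval. As the median over its clusters AZIN1 had 0.500 with RNase T1 1/1. AMD1 had 0.483 with RNase I 0.05/0.025 (0.408 to 0.569), where the median was 0.616, and between 0.535 and 0.642 in the other 4 libraries. ODC1 had 0.407 with RNase T1 1/1 (0.283 to 0.566), and OAZ1 0.544 (0.394 to 0.733), both with intervals that held the median.

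**Figure D4:**
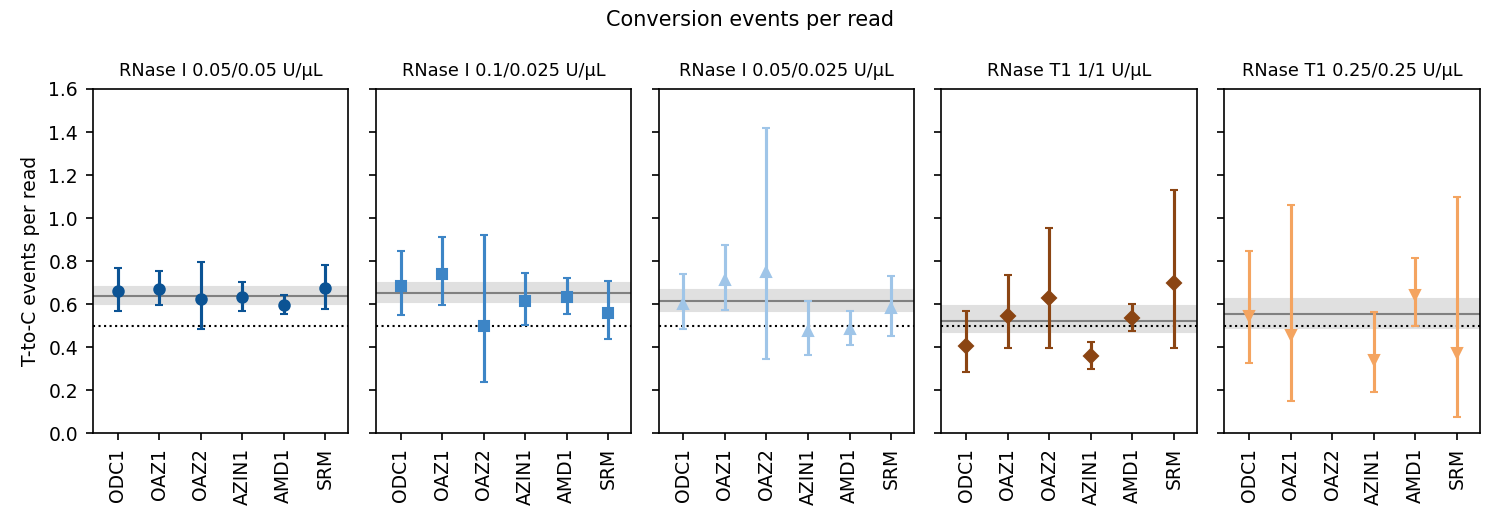
T-to-C conversion events per read summed over the clusters of each gene, 1 panel per IGF2BP3 library, with 95% Poisson intervals of the events. The solid line is the median and the grey band spans the first to the third quartile over genes with at least 20 reads, and the dotted line is 0.5. AZIN1 lies below the band in both RNase T1 libraries, at 0.357 and 0.341, and with RNase I 0.05/0.025, at 0.476. Of these AZIN1 points only that of RNase T1 1/1 has an interval that does not reach the band. Another 7 points, of the other genes, also lie below it, all 7 with intervals that reach it.

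Clusters covered more of the canonical 3′UTR with RNase I 0.05/0.05 than with RNase T1 1/1 in 6 of the 6 genes that had clusters there, beside 94.7% of 6296 genes. The covered share was 39.4% against 15.7% for ODC1, 82.3% against 34.0% for OAZ1 and 31.7% against 11.0% for OAZ2. It was 51.0% against 25.3% for AZIN1, 62.0% against 37.8% for AMD1 and 92.5% against 54.8% for SRM. The medians over all 6296 genes were 26.7% and 8.34%. The RNase I library of this pair had the most cluster reads, and with the other RNase I libraries the order was mixed. With RNase I 0.1/0.025 ODC1 had 22.9%, AZIN1 31.6% and SRM 76.7%, above RNase T1 1/1, but OAZ1 had 33.2%, OAZ2 10.2% and AMD1 36.0%, below it. With RNase I 0.05/0.025 OAZ2 at 7.41% and AZIN1 at 24.3% were below RNase T1 1/1. Median cluster length over these genes was 59.5 nt with RNase I 0.05/0.05 and 36.0 nt with RNase T1 1/1.

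**Figure D5:**
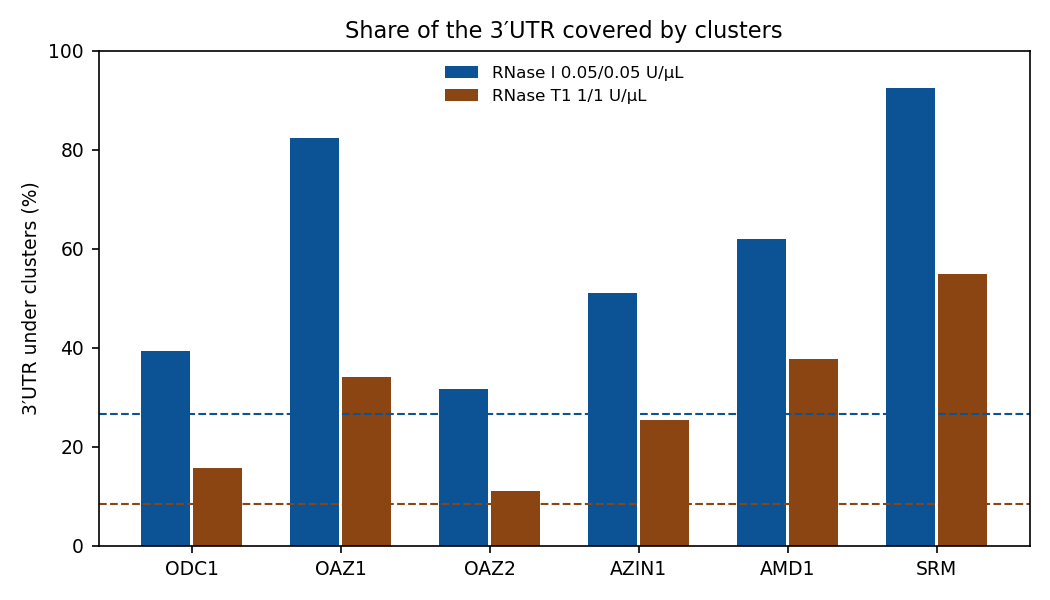
Share of the canonical 3′UTR under clusters, in percent, in the 2 electroeluted libraries. Dashed lines are the medians over the 6296 genes with 3′UTR clusters in both, 26.7% with RNase I and 8.34% with RNase T1. All 6 genes have the taller bar with RNase I.

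The enzymes were compared between libraries of the same gel extraction, with CPM ratios and exact intervals. With RNase I 0.05/0.05 over RNase T1 1/1, 2 of 6 genes were more than 2-fold higher, beside 29.8% of 8685 genes with at least 20 reads in the pair, and 0 were more than 2-fold lower, beside 15.2%. SRM was 5.62-fold higher (3.67 to 9.03) and OAZ1 2.67-fold (2.09 to 3.43). ODC1 had a ratio of 1.54 (1.20 to 1.98), OAZ2 1.46 (0.984 to 2.20), AMD1 1.04 (0.941 to 1.16) and AZIN1 0.778 (0.680 to 0.892), where the median of all genes was 1.15. With RNase I 0.1/0.025 over RNase T1 0.25/0.25, SRM had a ratio of 3.55 (1.75 to 8.40) and OAZ1 2.48 (1.34 to 5.10). OAZ2 had 20 reads against no cluster, a ratio of at least 1.51 against a floor of 3 reads, which does not reach 2-fold. With such genes counted as higher, 3 of 6 were higher, beside 41.7% of 4824 genes, and 0 were lower, beside 6.86%. Of all genes counted as higher in this pair, 1406 had no cluster with RNase T1 0.25/0.25. In the first pair 1019 of the genes counted as higher had no RNase T1 1/1 cluster, none of them a polyamine gene. ODC1 had a ratio of 0.804 in the second pair (0.549 to 1.21), AZIN1 0.888 (0.634 to 1.27) and AMD1 0.769 (0.618 to 0.964). The median of all genes in this pair, those without an RNase T1 0.25/0.25 cluster included, was 1.49.

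ODC1 was lower at the higher RNase dose in each of 3 comparisons, with intervals under 1, and the medians of all genes were above 1. Both RNase I comparisons were over the same library, RNase I 0.05/0.025, where ODC1 was highest with 221 CPM, so they are not independent. At 0.025 U/µL on the beads, RNase I at 0.1 against 0.05 U/µL in the lysate gave a ratio of 0.699 for ODC1 (0.546 to 0.894), beside a median of 1.01, and the intervals of the other 5 genes held 1. With RNase T1 1/1 over 0.25/0.25 the ODC1 ratio was 0.387 (0.259 to 0.592), beside a median of 2.32, and AMD1 had 0.796 (0.645 to 0.990). That median is over 5849 genes, whereas 3716 genes had a cluster with RNase T1 0.25/0.25. Genes without a cluster there entered it as unbounded ratios, which raises it. SRM at 0.453, OAZ1 at 1.13 and AZIN1 at 1.26 were also below it. With RNase I 0.05/0.05 over 0.05/0.025 the ODC1 ratio was 0.518 (0.422 to 0.637), beside a median of 1.29. That median is over 8221 genes, whereas 7282 had a cluster with RNase I 0.05/0.025, so unbounded ratios raise it as well. In this comparison SRM had 0.604 (0.486 to 0.754), AZIN1 1.26 (1.04 to 1.55) and OAZ2 2.46 (1.35 to 4.92). These last comparisons also differ in gel extraction, and the libraries of the higher dose had more cluster reads.

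The ends of the clusters followed the enzyme. With RNase T1, which cuts after G, 56 of 60 clusters of these genes ended in G at 1/1 and 19 of 19 at 0.25/0.25, beside 94.7% and 91.7% of all clusters in the same libraries. With RNase I 18 of 96, 11 of 55 and 7 of 51 clusters did so, beside 13.0%, 12.2% and 11.8%. Of the windows shown above, 2 of 5 from RNase I 0.05/0.05 held 1 of the tetramers CAGU, CAUU and CAUA, AZIN1 left out, the CAUU of AMD1 and the CAUA of ODC1, and 1 of 5 from RNase T1 1/1, the CAUU of AMD1. Among the same windows of all clusters, 39.1% held at least 1 of the 3 with RNase I 0.05/0.05 and 46.2% with RNase T1 1/1. By tetramer the shares were 15.8% for CAGU, 18.1% for CAUU and 10.1% for CAUA with RNase I, and 7.73%, 28.2% and 16.5% with RNase T1.

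Over all 5 libraries the clusters of these genes merged into 96 sites. Of these, 11.5% were present in every library and 39.6% in 1 library, beside 6.71% and 54.5% of 81580 sites on protein-coding genes. In all, 55.2% of the sites had no RNase T1 cluster and 6.25% had no RNase I cluster, beside 55.7% and 12.6% over protein-coding genes, with 3 RNase I libraries against 2 of RNase T1. Clusters overlapping the 3′UTR held 69.7%, 71.5% and 69.9% of their reads with RNase I 0.05/0.05, 0.1/0.025 and 0.05/0.025, beside 81.7%, 83.2% and 81.8% over protein-coding genes. They held 91.2% and 86.8% with RNase T1 1/1 and 0.25/0.25, beside 88.0% in both.

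Of 20 other genes of polyamine metabolism, 12 had a cluster with RNase I 0.05/0.05 and 9 of these were targets, beside 45.0% of genes with a cluster, and 12 had a cluster with RNase T1 1/1 and 7 of these were targets, beside 49.3%. Of the 20, 5 were targets in all libraries, namely SAT1, EIF5A, MAT2B, MTAP and ATP13A3, beside 17.5% of the genes with a cluster in any. The 20 include 6 genes without a cluster in any library, which the base of the 17.5% leaves out. SAT1, the acetyltransferase that starts polyamine breakdown, had 359, 146, 206, 331 and 203 CPM, with the libraries in the order RNase I 0.05/0.05, 0.1/0.025 and 0.05/0.025, then RNase T1 1/1 and 0.25/0.25. EIF5A, the translation factor that carries hypusine made from spermidine, had 221, 276, 347, 130 and 241 CPM. ATP13A3, a transporter of polyamines, had 516, 439, 485, 630 and 373 CPM, and MTAP, which salvages the by-product of both synthases, had 370, 248, 230, 286 and 263 CPM. MAT2B, the regulatory subunit of the enzyme that makes S-adenosylmethionine, had 126, 163, 167, 82.1 and 186 CPM. SLC3A2 was a target in 4 libraries, and EIF5A2, MAT2A, the catalytic subunit, and ATP13A2 were targets in 3. SLC18B1 was a target in 1 library, and SAT2, SMOX, DHPS and ARG2 had clusters and were never targets. PAOX, DOHH, OAZ3, AZIN2, ARG1 and AGMAT had no cluster in any library.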

How the data were processed

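The authors aligned deduplicated reads to GRCh38 with Bowtie 0.12.7, allowing 3 mismatches, and called clusters in each library with PARalyzer. Trimmomatic 0.30 and UMI-tools 1.1.1 are also named in the submitters' processing notes. The deposited values are raw counts of reads and conversion events in each cluster, without normalization by the authors, and a mode score, a fraction that was not used. The methods give 2 different in-lysate concentrations for the RNase I 0.1/0.025 library, and the one that matches the labels, 0.1 U/µL, was used.

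Clusters were assigned to genes of GENCODE release 44 with bedtools 2.31.1, Python 3.11.15, pandas 2.3.3 and scipy 1.17.1. All 244645 cluster sequences matched the genome at their positions. A cluster on several features counted as 3′UTR, then coding sequence, then 5′UTR. Reads that cross splice junctions could align only within the mismatches allowed, and reads may be placed at near-identical copies. Depth is cluster reads, not library size. With 1 library per condition no test was run. Alternatives changed thresholds, assignment, denominators and depth. The assignment and target calls were run on simulated clusters set inside exons and away from the thresholds. This checks that the code runs as written and not how reliable calls near the thresholds are. Genes named are the members, pathway genes that were targets in at least 3 libraries or had no cluster, and genes sharing a member's cluster, with 5 more pathway genes named after their values were seen. The members and gene lists were chosen with earlier results of these data known.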

Additional observations from a re-analysis of the deposited data

Results flagged for a closer look

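Clusters on processed pseudogenes of these genes, which belong to no comparison above, were called in IGF2BP3 libraries and not in the IgG library. Over the 5 IGF2BP3 libraries AMD1P3 had 68 reads, AMD1P2 17, AMD1P4 5 and OAZ1P1 10. Of the 9 clusters on AMD1 pseudogenes, 7 held or lay within the sequence of an AMD1 cluster. The part of reads placed at more than 1 copy was not tested.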

How the results depend on the processing

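No paired analysis was possible because each condition had 1 library, and no replicate could be left out. Counts of target genes changed mostly with the criteria. With more than 0.75 events per read, 3 genes were targets with RNase I at 0.05/0.05, 2 at 0.05/0.025 and 1 with RNase T1 0.25/0.25. With RNase T1 1/1 the count was 6 at 5 CPM and 1 at 20 CPM. With RNase T1 0.25/0.25 it was 1 at a minimum of 20 reads and 5 above 0.25 events per read. The 3′UTR share of the reads fell when coding sequence came first, to 50.3% with RNase I at 0.05/0.05, 56.1% at 0.1/0.025 and 53.2% at 0.05/0.025, and 86.0% with RNase T1 at 1/1 and 79.4% at 0.25/0.25, where clusters of AMD1 and, with RNase I 0.05/0.05, also of ODC1, OAZ2, AZIN1 and SRM then count as coding. With the canonical transcript alone it was 65.8% with RNase I 0.05/0.05 and 82.9% with RNase T1 1/1. At a 3-fold difference, 1 gene was higher with RNase I 0.05/0.05 than with RNase T1 1/1. The count of genes with broader 3′UTR coverage was 4 over clusters of more than 10 CPM, of which OAZ2 and SRM had none with RNase T1 1/1. Thinning the larger library kept clusters at their full length, so that it does not test the effect of depth on coverage. The number of reads limits OAZ2 everywhere and SRM and OAZ1 with RNase T1.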
